A study of Mus musculus with 2 samples.

Results

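The Paneth-rich squares are small squares of one irradiated mouse intestine section, the section labelled wild type, in which 5 Paneth cell genes took the largest share of all counts. The section was divided into squares with a side of 10 position units, and the 4917 squares with 1000 or more counts were kept. Each was scored by the share of its counts that came from Defa24, Defa17, Defa30, Lyz1 and Defa23, and the 246 squares with the highest scores, the top 5%, were taken. They hold 8.45% of the kept counts of that section, and they are 246 of 13202 kept squares in the whole series. A square held a median of 12 barcodes and can contain parts of several cells of different types, so it is a region and not a cell.

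The series holds 2 fresh frozen sections of mouse intestine, cut at 10 µm, on which RNA was captured by position and sequenced. The mice of 1 section are labelled WT and those of the other DPF2 KO, and both groups had received 10 Gy of X-rays. No unirradiated section was analysed here. The labels leave out the strain, the age, the sex, the time between irradiation and sampling, the stretch of intestine, and the allele and the cells in which Dpf2 was deleted. With 1 section per genotype there is no replicate, the squares of a section are not replicates of a condition, and no test was made. Values from the section labelled knockout stand beside the others as values of a second section, and genotype and section cannot be told apart.

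Paneth cells are secretory cells at the base of small intestinal crypts, where they sit between Lgr5-positive stem cells. They release alpha-defensins, lysozyme, phospholipase A2 and other antimicrobial proteins into the crypt lumen, and they supply Wnt3, EGF and Notch ligands to the stem cells. The matrix metalloproteinase Mmp7 cuts mouse pro-alpha-defensins into their active form. Wnt signalling, acting through TCF factors, drives their differentiation and the expression of several of their defensin genes.

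The alpha-defensin genes lie in a cluster on chromosome 8, and some of them have identical or nearly identical promoters. The 100 bases before the annotated start are shown for the members on which the results turn, from RefSeq on GRCm38.p6, with the letters TATAA, and CTTTGA on either strand (read as TCAAAG on the other), in capitals. Defa23 and Defa30 were used for the score, Defa2 and Defa21 were not and stood among the highest ratios of the other genes, and Lyz1 and Lyz2 are the Paneth and the myeloid lysozyme. The windows are chr8:21054940-21055039 for Defa23, chr8:21134550-21134649 for Defa30, chr8:21378417-21378516 for Defa2 and chr8:21025445-21025544 for Defa21, all on the plus strand. Those of Lyz1 and Lyz2 are chr10:117292869-117292968 and chr10:117282273-117282372, on the minus strand.
Defa23: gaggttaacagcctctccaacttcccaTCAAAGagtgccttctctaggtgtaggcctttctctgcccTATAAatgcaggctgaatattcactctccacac
Defa30: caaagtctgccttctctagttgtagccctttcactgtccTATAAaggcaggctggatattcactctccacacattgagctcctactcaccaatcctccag
Defa2: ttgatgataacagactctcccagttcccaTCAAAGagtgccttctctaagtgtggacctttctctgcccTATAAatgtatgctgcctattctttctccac
Defa21: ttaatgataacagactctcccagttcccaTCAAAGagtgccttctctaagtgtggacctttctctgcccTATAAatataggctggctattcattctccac
Lyz1: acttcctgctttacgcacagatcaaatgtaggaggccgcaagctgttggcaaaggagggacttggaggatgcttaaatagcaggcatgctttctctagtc
Lyz2: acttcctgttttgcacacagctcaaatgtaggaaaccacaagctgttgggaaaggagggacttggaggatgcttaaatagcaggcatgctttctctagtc
The windows of Defa2 and Defa20 are identical over these 100 bases, as are those of Defa21 and Defa22, of Defa23 and Defa31, and of Defa36 and Defa37. The Defa2 and Defa21 windows differ at 5 bases, and those of Lyz1 and Lyz2 at 8. Compared base by base without alignment, 10 of 66 pairs of defensin windows differ at 5 bases or fewer and the other 56 at 65 to 82, among them Defa23 and Defa2 at 65, Defa30 and Defa2 at 68, and Defa23 and Defa30 at 75. A shift of the start alone can give such numbers. The Defa32 window is that of Defa2 moved by 2 bases, with TATAA at −29 and −31, and the pair differs at 65. The larger differences are therefore no measure of how alike 2 promoters are. A RefSeq window was found for 3 of the 5 score genes, 10 of 18 other alpha-defensins and 8 of 11 other secreted products. In the 250 bases before the start, CTTTGA on either strand was present in 12 of 12 defensin windows, 8 of them with 2 matches, and in 13.8% of all 32851 windows of that length. TATAA on the gene's strand was present in 11 of 12 defensin windows and in 16.0% of all windows. Since some windows are copies of others, the 12 are not independent, and a match is a description of letters, not a site. Reads from near-identical copies can be assigned to the wrong copy, and the labels do not say how reads that match several copies were counted, so the level of a single alpha-defensin is less certain than that of the group.

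The 5 score genes together made up 20.8% of counts in the Paneth-rich squares (exact 95% binomial interval 20.77 to 20.86) and 7.56% in the 4671 remaining squares (7.55 to 7.57). These values chose the squares, and they are given as a description. The score of a square ran from 17.7% to 29.5% with a median of 20.05% in the Paneth-rich squares, and from 0.398% with a median of 5.67% in the remaining ones. The last 3 squares taken scored 17.73%, 17.72% and 17.71%, and the first 3 left out scored 17.70%, 17.70% and 17.69%, so there was no gap at the threshold. The squares are the upper end of a continuous range.

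Each of the 5 genes was found throughout the section and was more abundant in the chosen squares. Defa24 (chr8:21734494-21735471), the most abundant of the 5, ran from 69030 to 127774 counts per 1000000 (CPM) of all counts over the Paneth-rich squares with a median of 85597, and the remaining squares reached 79652 with a median of 23532. Defa17 (chr8:21655767-21656736) had a median of 39108 CPM of all counts against 12287, and Defa30 (chr8:21134650-21135598) had 40803 against 11393. Defa23 (chr8:21055040-21056016) had a median of 18963 CPM of all counts against 4611. Lyz1 (chr10:117287795-117292868), the Paneth lysozyme, which cuts bacterial cell walls, ran from 10268 to 28285 CPM of all counts with a median of 18380, and the remaining squares reached 21039 with a median of 5406. For each gene the ranges of the 2 sets of squares overlapped, and the median Paneth-rich square held more than 3 times the level of the median remaining square.

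The Paneth-rich squares lay in the outer turns of the section. The tissue is wound in concentric turns, and the squares stood at a median of 395 position units from the section's centre against 291 for the remaining squares, with none nearer than 261. They formed 55 patches of touching squares, 25 of them single squares, and the largest patch held 69 squares or 28.0%. Of the 246 squares, 221 (89.8%) touched another Paneth-rich square. A separate piece of tissue of 92 squares held 18 of them. The Paneth-rich squares were also denser on 1 side. With the section cut into 4 parts at the medians of their positions, parts 1 and 3, at lower y, held 62 and 61 beside 337 and 283 remaining squares. Parts 2 and 4, at higher y, held 62 and 61 beside 1532 and 2519. None of the 260 squares under 100 position units from the centre and none of the 881 from 100 to 200 was taken. The share taken was 0.746% from 200 to 300, 6.71% from 300 to 400 and 18.8% from 400 outwards. The pooled score of these 5 bands was 3.64%, 4.78%, 7.26%, 9.85% and 13.1%, from the centre outwards.

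**Figure D1:**
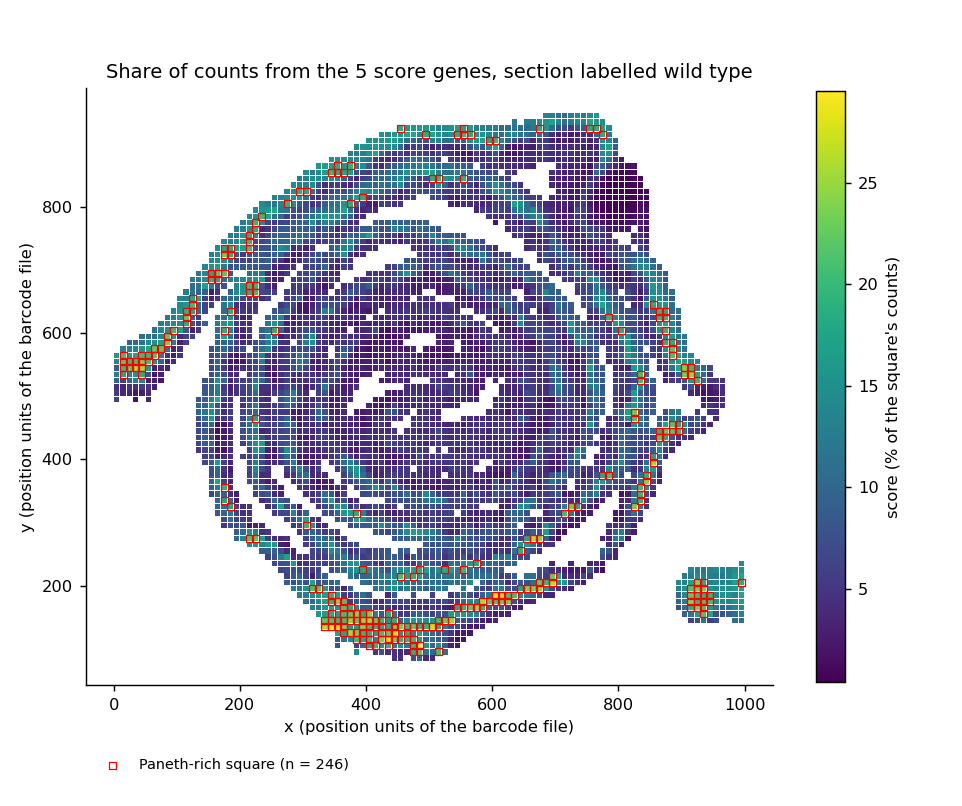
Map of the section labelled wild type, with position units of the barcode file on both axes, each kept square coloured by its score in percent of its counts, and the 246 Paneth-rich squares outlined in red. The outlined squares follow the outer turns, cluster in the largest patch of 69 squares near the lower edge and in the separate piece at the lower right, and are absent from the inner turns.

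Depth moved with membership. A Paneth-rich square held 1353 to 29161 counts with a median of 13721, and a remaining square 1006 to 29663 with a median of 7336, at a median of 12 and 11 barcodes, so the counts per barcode were 1188 and 761. Median counts per square also grew outwards, from 5587 in squares under 100 position units from the centre to 9513 in those at 400 or more. Values within bands of distance from the centre, and against the 2178 remaining squares with 7550 to 19142 counts, called squares of like depth and chosen after the data were seen, are given beside the main results.

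All other genes were compared between the summed counts of the Paneth-rich squares and of the remaining squares, in CPM of the counts left after taking out the 5 score genes. The values are log2 ratios with exact 95% intervals that cover counting error only, and PCR reads without stated molecular identifiers are not independent molecules. The floor used here, 3 counts, corresponds to 1.13 CPM in the Paneth-rich and 0.0893 CPM in the remaining squares. A total of 11652 genes had 200 or more counts. Of these, 73 (0.627%) stood 2-fold or more higher in the Paneth-rich squares and 712 (6.11%) 2-fold or more lower. Against squares of like depth, 60 were higher and 485 lower. The median of all these genes was −0.46, and a list is described below by its median minus this value as well, called its relative median. Scaling by the median of ratios puts that median at 0, which adds 0.46 to each ratio, so that a ratio between −0.46 and 0 changes sign. Then 171 genes were higher and 175 lower, and the share of higher among the genes 2-fold apart was 49.4% in place of 9.30%. The squares were chosen on these same counts, so the ratios describe the squares and test nothing.

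Of the 73 higher genes, 20 carry a Defa name and 26 belong to the lists of other alpha-defensins and other secreted Paneth products, and these 2 groups overlap. Another 12 carry the names of predicted genes (Gm and a number). The alpha-defensins and Lyz1 together made up 39.2% of all counts in the Paneth-rich squares (39.13 to 39.23) and 13.1% in the remaining squares (13.12 to 13.14). The score did not use the other alpha-defensins, but misassigned reads of score genes could be counted among them, so they may not be separate from the score. The other alpha-defensins were all higher. Their summed level was 112871 to 393474 CPM over the Paneth-rich squares with a median of 220043, and a median of 39373 CPM over the remaining squares, of which 0.34% exceeded the Paneth-rich median. The highest remaining square, at 278460 CPM, lay within the Paneth-rich range. The 18 measured members had a median log2 ratio of 1.96 (relative median 2.41), with 18 of 18 at least 2-fold higher. The relative median was 1.71 to 2.55 over the 4 position parts of the section, 2.25 against squares of like depth, and 2.01 and 1.60 within the bands at 300 to 400 and at 400 or more position units from the centre.

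The alpha-defensins were not raised by the same amount. Defa21 (chr8:21025545-21026517) ran from 3059 to 39006 CPM over the Paneth-rich squares with a median of 16105, against a median of 1680 and a highest value of 26608 over the remaining squares. Its log2 ratio was 2.38 (2.36 to 2.40), and 0.899% of remaining squares exceeded the Paneth-rich median. Defa2 (chr8:21378517-21379495) ran from 2953 to 47460 CPM with a median of 19261, against 1993, a ratio of 2.35 (2.33 to 2.36). Both had counts in every Paneth-rich square and in 98.5% and 98.7% of remaining squares, so the squares differed in level rather than in presence.

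Other copies stood lower in the order. Defa31, whose promoter window equals that of Defa23, ran from 21921 to 56646 CPM over the Paneth-rich squares with a median of 34406, against 8582, a ratio of 1.65 (1.64 to 1.66). AY761184, an alpha-defensin gene, stood at 1.51 (1.49 to 1.53), and Defa3 at 1.62. Defa35 stood at 2.22, Defa22 at 2.16, Defa33 and Defa20 at 2.13, Defa32 at 2.04 and Defa5 at 1.90. The highest ratio, 2.55 (2.15 to 2.94) for Defa27, rested on 81 and 175 counts, and its interval includes the ratios of Defa21 and Defa2. The ranges over the 4 position parts were wider than the counting intervals for Defa21 and Defa2, at 1.63 to 2.60 and 1.496 to 2.61.

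**Figure D2:**
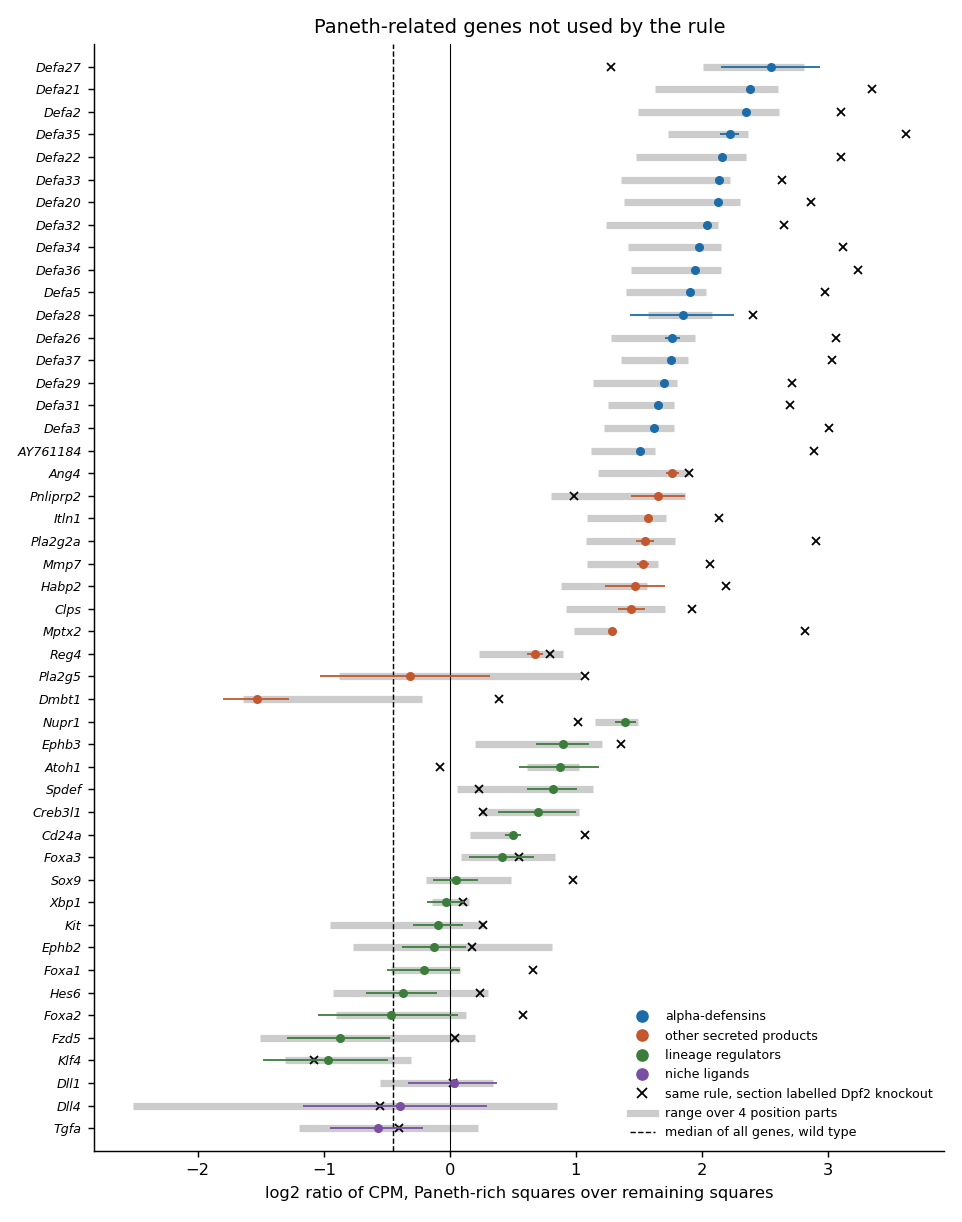
Log2 ratio of CPM between Paneth-rich and remaining squares for Paneth-related genes with 200 or more counts in the section labelled wild type, by role, with 95% counting intervals, the range over the 4 position parts in grey and the same rule in the section labelled Dpf2 knockout as crosses. The 18 alpha-defensins lie at 1.51 or above, the secreted products mostly between 0.67 and 1.76, the regulators mostly nearer 0, and the dashed line marks the median of all genes at −0.46.

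The composition of the alpha-defensin pool differed with distance from the centre, and Defa2 and Defa21 had the steepest gradients among those with 1000 or more counts. From squares under 100 position units from the centre to those at 400 or more, the level in CPM of all counts differed 13.8-fold for Defa2, 11.5-fold for Defa21 and 7.41-fold for Defa33 and Defa20. It differed 3.74-fold for Defa24, 3.40-fold for Defa31, 3.29-fold for Lyz1 and 3.24-fold for Defa17, and 2.28-fold for the secreted pentraxin Mptx2. Defa2 and Defa20, whose windows are identical over the 100 bases before the start, thus had gradients of 13.8-fold and 7.41-fold.

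Among the counts of all alpha-defensins and Lyz1, Defa2 made up 4.41% in the Paneth-rich and 3.03% in the remaining squares, Defa21 3.77% and 2.53%, Defa24 23.6% and 25.5%, and Defa17 10.7% and 12.5%. Within the band at 300 to 400 position units the share of Defa2 was 4.35% in the Paneth-rich and 3.41% in the remaining squares. At 400 or more it was 4.56% and 4.50%, and that of Defa21 was 3.96% and 3.70%. The 10 Paneth-rich squares at 200 to 300 position units held 2.25% Defa2 and 1.97% Defa21, against 1.95% and 1.64% in the remaining squares there. The shares of both genes were thus higher in the Paneth-rich squares within each of the 3 bands, by the least in the outermost.

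**Figure D3:**
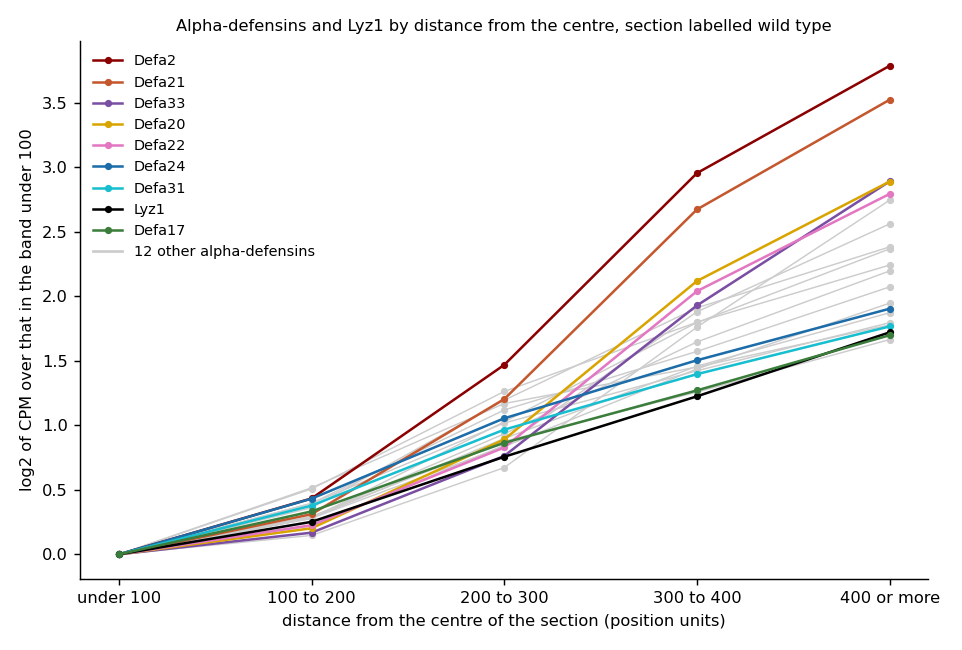
Level of the alpha-defensins and Lyz1 in CPM of all counts, on a log2 scale relative to the squares under 100 position units from the centre, by band of distance from the centre, over all kept squares of the section labelled wild type. Defa2 and Defa21 stand 13.8-fold and 11.5-fold higher in the outermost than in the innermost band, and Lyz1 and Defa17 3.29-fold and 3.24-fold.

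Other secreted Paneth products were higher with few exceptions. The list summed to 11031 to 30637 CPM over the Paneth-rich squares with a median of 18430, and to a median of 5712 and a highest value of 21291 over the remaining squares. Its 11 measured members had a median of 1.47 (relative median 1.92, 1.39 to 2.08 over the parts), with 8 at least 2-fold higher and 1 at least 2-fold lower. Within the bands at 300 to 400 and at 400 or more position units the relative median was 1.55 and 1.4, and it was 1.84 against squares of like depth. The list thus stood below the alpha-defensins and above every other list measured.

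Itln1, a lectin that binds microbial sugars, ran from 4603 to 17056 CPM over the Paneth-rich squares with a median of 8950, against 2463, and its ratio was 1.57 (1.55 to 1.59). Only 0.535% of remaining squares exceeded the Paneth-rich median, although their highest, at 14124 CPM, lay within the Paneth-rich range. Ang4, an antimicrobial ribonuclease, had a median of 1381 CPM against 307 and a ratio of 1.76 (1.71 to 1.82), and it had no count in 1 of the 246 Paneth-rich squares. Mmp7, the protease that activates the alpha-defensins, ran from 382 to 4985 CPM with a median of 1610, against 463, and stood at 1.53 (1.49 to 1.58). The phospholipase Pla2g2a stood at 1.55 (1.48 to 1.62), with 729 CPM over the Paneth-rich and 249 over the remaining squares. Mptx2 stood at 1.29 (1.26 to 1.32), and the lipase Pnliprp2 and its cofactor Clps at 1.65 and 1.44. Reg4 stood at 0.67. The exceptions were Dmbt1, a mucosal scavenger receptor, at −1.53 (−1.80 to −1.27), and Pla2g5 at −0.32 (−1.03 to 0.32).

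The transcription factors and other regulators of the Paneth and secretory lineage differed far less than the products. Of 16 with 200 or more counts, 1 was at least 2-fold higher and none lower, and 16 of 19 measured members lay above the median of all genes. The median was 0.41 (relative median 0.87, and 0.51 to 0.72 over the parts, each with the members measured there), and the sum was 2238 CPM over the Paneth-rich and 1581 over the remaining squares. Nupr1, a stress-induced chromatin protein, was the 1 higher, at 1.39 (1.31 to 1.47), with 544 and 207 CPM. Atoh1, the factor that commits cells to the secretory lineage, stood at 0.87 (0.55 to 1.18), Spdef, which acts in goblet and Paneth cell maturation, at 0.81 (0.61 to 1.01), and Ephb3, the receptor that keeps Paneth cells at the crypt base, at 0.90. Bhlha15, a regulator of secretory cell architecture, stood at 1.59 (0.96 to 2.17) on 30 and 126 counts. Sox9, which Paneth cells require, stood at 0.05 (−0.13 to 0.22), and Xbp1, a driver of the secretory apparatus, at −0.03. Klf4 stood at −0.97 and the Wnt receptor Fzd5 at −0.87. Gfi1 had 7 and 54 counts, too few to place it (−0.67 to 1.85).

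Among the ligands that Paneth cells give to stem cells, Wnt3 (chr11:103774175-103818021) had 42 counts in the Paneth-rich and 151 in the remaining squares, 15.8 and 4.49 CPM, a ratio of 1.81 (1.28 to 2.32) that was above 0 in all 4 position parts. A count of Wnt3 was found in 14.6% of Paneth-rich and 3.08% of remaining squares, at median depths of 13721 and 7336 counts. The Notch ligands Dll1 and Dll4 stood at 0.03 and −0.39, and Tgfa at −0.57 (−0.95 to −0.21). Egf had 2 and 41 counts. The 6 measured ligands together had a median of −0.48 (relative median −0.03), and none of the 3 with 200 or more counts was 2-fold apart.

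As a list, markers of the stem cells that neighbour Paneth cells were not raised over the remaining squares, which also held them. The label of crypt base thus rests here on the Paneth products and not on a contrast in stem cell markers. The stem cell list summed to 0 to 2462 CPM over the Paneth-rich squares with a median of 982, against a median of 1462 and a highest value of 7092 over the remaining squares. Of 20 measured members 8 lay above the median of all genes and none of the 19 with 200 or more counts was 2-fold apart. The median was −0.53 (relative median −0.07, −0.13 to 0.02 over the parts). It was −0.09 against squares of like depth. Cd44 stood at −0.43, Hopx at −0.65 and Lrig1 at −0.76. Of the best known markers, chosen after their values were seen, Lgr5 had 57 and 646 counts and stood at 0.16 (−0.26 to 0.55), Olfm4 52 and 943 counts at −0.52 (−0.95 to −0.12), Ascl2 at −0.40 and Smoc2 at −0.70. The interval of Lgr5 lay above the median of all genes, −0.46, and that of Olfm4 included it.

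Genes of cell division were lower. Of 30 proliferation genes, 4 lay above the median of all genes, none was at least 2-fold higher and 3 were at least 2-fold lower, with a median of −0.66 (relative median −0.20, −0.21 to −0.06 over the parts). The list's median Paneth-rich square held 2119 CPM against 3147 in the remaining squares, and 10.6% of Paneth-rich squares lay above the latter. The mitotic kinases Aurka and Plk1 stood at −1.17 and −1.01, and the ribonucleotide reductase subunit Rrm2 at −1.07. The lists of Wnt targets, p53 targets and apoptosis had relative medians of 0.03, −0.05 and −0.13. Of 29 p53 targets, as of 30 proliferation genes, 3 were at least 2-fold lower, beside 6.11% of all genes. The lower p53 targets include Sesn1 at −1.77 and the cytokine Gdf15 at −1.09. The list of regenerating epithelium stood at −0.11, with 4 of 27 at least 2-fold lower, including Ly6d at −1.61, the secreted phosphoprotein Spp1 at −1.60 and Msln at −1.23.

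Genes of goblet cells, the mucus-secreting relatives of Paneth cells, split by gene. The goblet cell list summed to 7738 to 32588 CPM over the Paneth-rich squares with a median of 14820, against 6243 and a highest value of 26136 over the remaining squares, of which 2.61% exceeded the Paneth-rich median. Its 18 measured members had a median of 0.55 (relative median 1.0, 0.71 to 1.07 over the parts). The relative median was 0.85 and 0.82 within the 2 outer bands and 0.87 against squares of like depth. At least 2-fold higher were 2 of 14 and lower 2 of 14, beside 0.627% and 6.11% of all genes. Of the 246 Paneth-rich squares, 124 (50.4%) were also among the top 5% by this list. Most of the list's sum came from 1 gene, Spink4, with 10307 of 15261 CPM in the Paneth-rich and 4271 of 7159 CPM in the remaining squares. Spink4, a secreted protease inhibitor, ran from 5276 to 23371 CPM with a median of 9934, against 3616, and stood at 1.27 (1.25 to 1.29). Muc2, the main gel-forming mucin, had a median of 2607 CPM against 1165 and stood at 1.03 (0.99 to 1.07). Tff3, the trefoil peptide of goblet cells, stood at 0.55, and the disulfide isomerase Agr2, needed for mucin folding, at 0.76. The mucus proteins Zg16 and Fcgbp stood at −1.38 and −1.12.

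The antibacterial lectins of the Reg family also split. Reg3g, which acts on Gram-positive bacteria, ran from 1251 to 8246 CPM over the Paneth-rich squares with a median of 3198, against 855 and a highest value of 7958, and stood at 1.58 (1.54 to 1.61), with 1.41 to 1.62 over the parts. Reg3b stood at −1.26, with 311 and 742 CPM, and at 0.60 in position part 3. Of the 246 squares, 53 (21.5%) were also among the top 5% by the summed Reg lectins. The list of the secretory pathway and endoplasmic reticulum stress had a median of −0.12 (relative median 0.34, 0.26 to 0.36 over the parts), with 35 of 37 measured members above the median of all genes and none of 36 at least 2-fold apart. Kdelr3, a retrieval receptor of the secretory pathway, stood at 0.83, the protein disulfide isomerase P4hb at 0.51, and the chaperones Hsp90b1 and Canx at −0.53 and −0.39.

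Markers of other cell types moved with the Paneth-rich squares as well, and their part in the results was not tested. Of all genes, 6.11% were at least 2-fold lower, which is the background for each such count in this paragraph. The 24 absorptive enterocyte genes had a median of −1.40 (relative median −0.94). The relative median was −0.06 in position part 1, 0.015 in part 2, 0.39 in part 3 and −1.27 in part 4. Of the enterocyte genes, 12 of 18 were at least 2-fold lower. Their sum was 359 CPM over the Paneth-rich and 890 over the remaining squares. Apoa4, an apolipoprotein of chylomicrons, stood at −2.76 (−3.24 to −2.32), and Apoa1 at −2.16. B cell genes had a relative median of −1.69, with 4 of 5 at least 2-fold lower and sums of 38.8 and 148 CPM. Their relative median was 0.14 in position part 1, −0.13 in part 2 and −1.24 in part 4, with too few members measured in part 3. It was 0.28 against squares 2 or 3 squares away. Among the B cell genes stood Ighm, the heavy chain of IgM, at −2.72 (−3.37 to −2.14). Plasma cell genes had a relative median of −0.68 and sums of 2379 and 4743 CPM, with Igha at −1.06 and Igkc at −1.14. Enteroendocrine genes were at least 2-fold lower in 5 of 11 cases, with a relative median of −1.84 to 0.07 over the parts.

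Stromal markers did not move together. Fibroblast and matrix genes had a median of 0.31 (relative median 0.76, 0.04 to 0.75 over the parts), 18 of 19 lay above the median of all genes and none was at least 2-fold apart. Their sum was 865 to 8482 CPM over the Paneth-rich squares with a median of 2803, against 2170, and 74.0% of Paneth-rich squares lay above the latter. Postn and Mgp stood at 0.90 and 0.74, Col3a1 at 0.62 and Pdgfra at −0.86. Smooth muscle genes had a relative median of −0.13 and sums of 1048 and 1504 CPM. It ranged from −1.63 in part 3 to 0.13 in part 4 and was 0.57 with squares of 20 position units, so that no direction held. Enteric neuron and glia genes had a relative median of −0.33 and sums of 288 and 451 CPM, with −1.42 to −0.06 over the parts and 0.51 with squares of 20 position units. Neutrophil genes had a relative median of 0.43, with 14 of 15 above the median of all genes, but −0.37 in part 3, and their sum was 802 CPM in the Paneth-rich and 840 in the remaining squares. Macrophage genes had 0.35, with 15 of 17 above that median, −0.02 in part 1, and sums of 1611 and 1786 CPM.

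**Figure D4:**
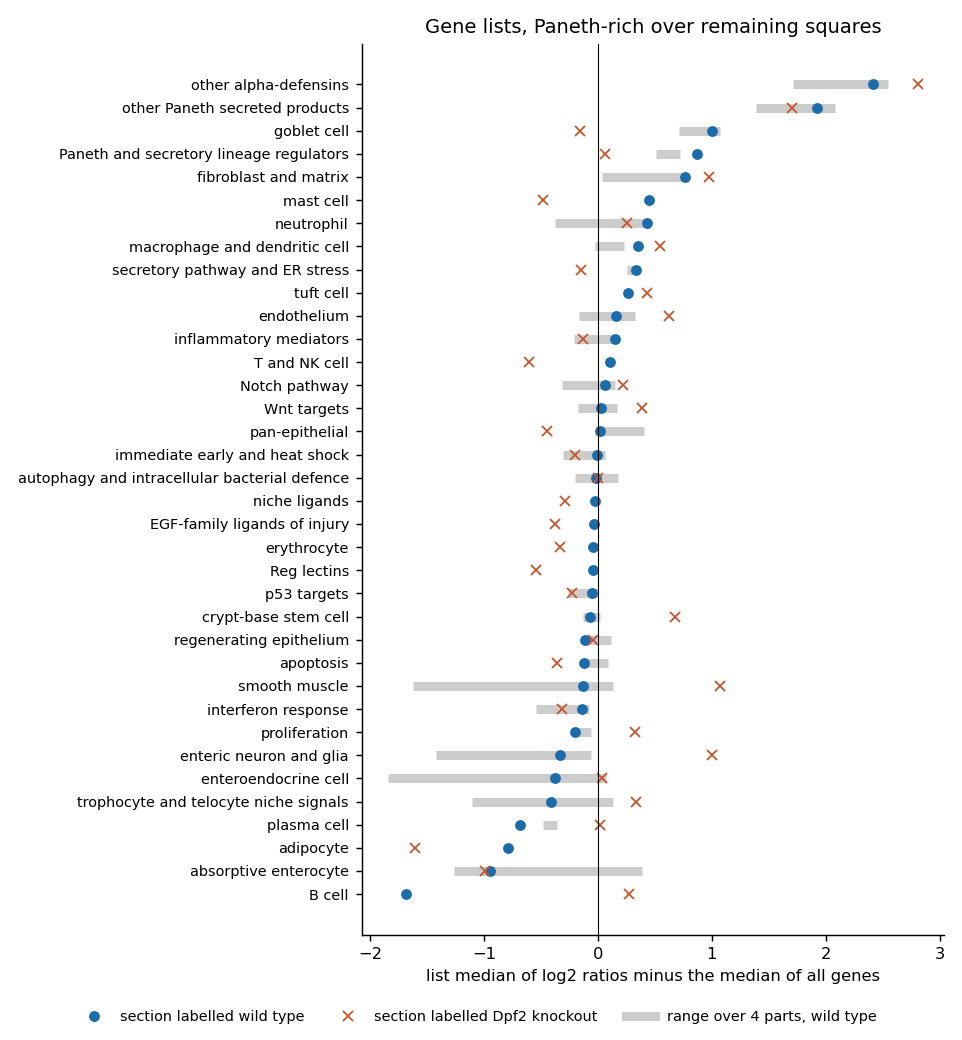
Median log2 ratio of each gene list between Paneth-rich and remaining squares, minus the median of all genes, for the section labelled wild type (points), its 4 position parts where 6 or more members were measured in each (grey bars, over the members measured there) and the section labelled Dpf2 knockout (crosses). In the section labelled wild type the alpha-defensins (2.41), other secreted products (1.92) and goblet cell genes (1.0) stand highest and B cell genes (−1.69) lowest.

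Single genes outside the Paneth lists also passed 2-fold, and these were chosen after their values were seen. Pla2g2f, another secreted phospholipase, stood at 1.36, the apolipoprotein gene Apoc2 at 1.27, Lox, which crosslinks collagen, at 1.18, the fucosyltransferase Fut2 at 1.10, the chemokine Ccl6 at 1.09, Guca2b, the hormone uroguanylin, at 1.05, and the cytokine Lif at 1.01. Over the 4 position parts Lif ran from 0.055 to 0.85, below 2-fold in each. Among the 15 lowest ratios with all 4 position parts below 0 were Clca4b at −2.21 on 27 counts in the Paneth-rich squares, Ighm, the granin Vgf and the carbonic anhydrase Car2 at −2.67 and −2.39, each on 4 counts.

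The other alpha-defensins were lower at each greater distance from the Paneth-rich squares. Their summed level stood at 231990 CPM in the Paneth-rich squares, 110886 in the squares that touch them, 71315 at a distance of 2 squares, 60822 at 3, 56776 at 4 or 5 and 35517 at 6 or more. The 5-gene score was 20.8%, 11.9%, 8.29%, 7.45%, 7.53% and 5.33% in the same order, and median counts per square were 13721, 10038, 7537, 6900, 7394 and 6841. Goblet cell genes stood at 15261 CPM in the Paneth-rich squares, 9290 in those touching them and 7276 at 2 squares, of which Spink4 alone made up 10307, 6026 and 4368 CPM. Reg3g stood at 3519, 1761 and 1257 CPM at the same distances. Smooth muscle genes were higher next to the Paneth-rich squares, at 1923 CPM in the touching squares and 1856 at 2, than in the Paneth-rich squares, at 1048. Stem cell genes stood at 1034 CPM in the Paneth-rich squares and 1353 in the touching ones, and at 1607 at 6 or more squares. The totals of these CPM include the other alpha-defensins, and the list's relative median, Paneth-rich against remaining squares, was −0.07. Lgr5 stood between 17.9 and 21.4 CPM at all 6 distances.

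**Figure D5:**
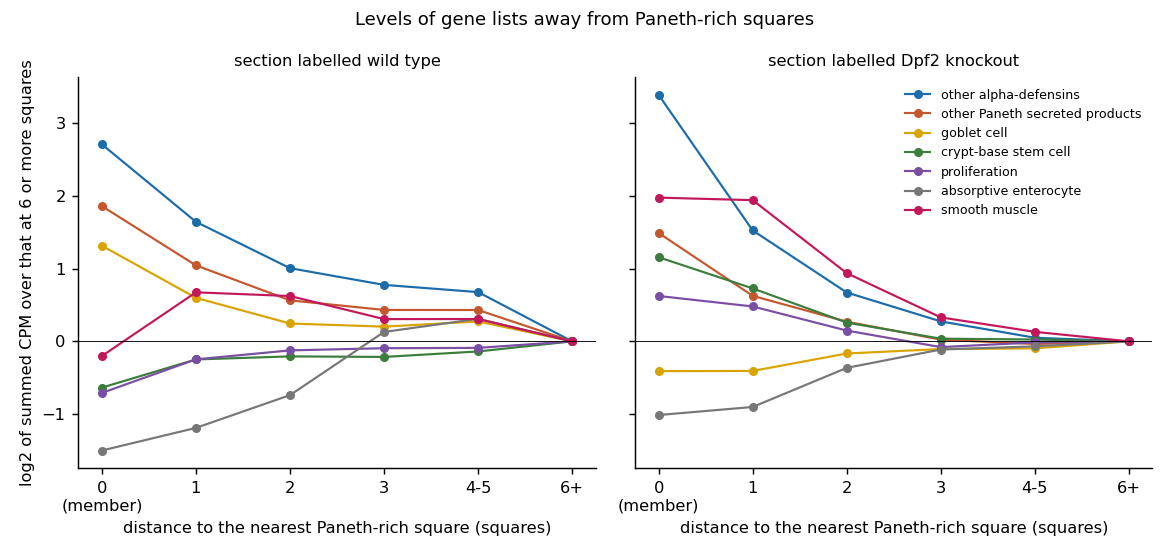
Summed level of 7 gene lists by distance to the nearest Paneth-rich square, in squares, as log2 of the CPM over that at 6 or more squares, in the section labelled wild type (left) and the section labelled Dpf2 knockout (right). The other alpha-defensins go from 231990 to 35517 CPM on the left and from 10287 to 984 on the right. In CPM, stem cell genes are lowest in the Paneth-rich squares on the left (1034) and highest there on the right (2018, of which Olfm4 alone is 820). The totals of these CPM include the other alpha-defensins. The relative median of the stem cell list, Paneth-rich against remaining squares, is −0.07 on the left and 0.68 on the right.

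The Paneth-rich squares also differed among themselves. As a description, they were divided by the score that chose them into the 82 squares from 21.6% to 29.5%, the 82 next, down to 19.2%, and the last 82. The other alpha-defensins summed to 271924, 230122 and 195576 CPM in these sets, the other secreted products to 21583, 18569 and 15975, and the Reg lectins to 4250, 3951 and 3312. Goblet cell genes summed to 17125, 14437 and 14295 CPM. Median depth was nearly alike in the 3 sets, at 13738, 13366 and 13756 counts. Of the 246 squares, 176 (71.5%) were also among the top 5% by the other alpha-defensins, 188 (76.4%) by the other secreted products and 51 (20.7%) by the lineage regulators.

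The same rule was applied to the section labelled Dpf2 knockout, where 414 of 8285 kept squares were taken at a far lower score. Dpf2 itself, a subunit of the BAF chromatin remodelling complex, had 18.8 CPM in the Paneth-rich and 26.3 CPM in the remaining squares of the section labelled wild type, and 26.8 and 26.1 CPM in those of the section labelled knockout. Whether Dpf2 was deleted was not tested. The allele is not given, and reads from outside a deleted part would check nothing about a deletion. The levels are also not on a like scale across sections. Other alpha-defensins took 231990 CPM of the Paneth-rich total under the wild type label and 10287 CPM under the knockout label. The score threshold was 1.73% there, with a pooled score of 2.93% (2.91 to 2.95) in the Paneth-rich and 0.448% (0.446 to 0.449) in the remaining squares, and the highest square reached 10.5%. Every Paneth-rich square of the section labelled wild type, at 17.7% or more, scored above it. Median counts were 10057 and 10212, so depth did not move with membership there.

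Within each section, the lists of Paneth products were higher in the Paneth-rich than in the remaining squares. The Paneth-rich squares of the section labelled knockout stood below even the remaining squares of the section labelled wild type. Other alpha-defensins had 10287 CPM in the former and 60258 in the latter, and other secreted products 3159 and 6953. The pooled score was 2.93% and 7.56%. In the section labelled knockout the alpha-defensins and Lyz1 made up 3.93% of counts in the Paneth-rich and 0.590% in the remaining squares. Defa21 had 150 and 14.7 CPM there, a ratio of 3.35, Defa31 had 4791 and 736 CPM, a ratio of 2.70, and Mptx2 had 196 and 27.8 CPM, a ratio of 2.82. The relative median of the other alpha-defensins was 2.81, with 15 of 15 at least 2-fold higher, and that of the secreted products 1.71, with 8 of 11 higher. The background there was 710 higher (5.40%) and 177 lower (1.35%) of 13147 genes, with a median of 0.20, and 332 and 350 with scaling by the median of ratios. Defa24 held 37.9% of the alpha-defensin and Lyz1 counts in those Paneth-rich squares and Defa2 0.350%, against 23.6% and 4.41% in the section labelled wild type.

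What accompanied the Paneth products differed between the 2 sections. In the section labelled knockout the stem cell list had a relative median of 0.68 (0.65 to 0.91 over its 4 parts), 8 of 20 genes were at least 2-fold higher, and 106 of the 414 squares (25.6%) were also among the top 5% by that list. Olfm4 stood at 1.44 (1.39 to 1.49) there, Lgr5 at 0.88 and Smoc2 at 1.14, chosen after their values were seen. Olfm4 had 820 CPM in the Paneth-rich squares under the knockout label and 19.6 under the wild type label, and Lgr5 had 21.1 and 21.4. The list summed to 2018 and 1034 CPM in these squares, and to 1041 and 1486 in the remaining squares. Smooth muscle genes in the section labelled knockout had a relative median of 1.07 with 13 of 15 at least 2-fold higher, and neuron and glia genes had 1.0 with 9 of 11 higher. Goblet cell genes had a relative median of −0.16, Muc2 stood at −0.33 and Reg3g at −0.42, and none of the 414 squares was among the top 5% by the goblet cell list. Wnt3 stood at 2.07 (1.22 to 2.83) on 17 and 79 counts. The difference between the sections was not tested, since each genotype has 1 section.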

How the data were processed

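RNA was captured by position on 2 frozen sections, sequenced, and assigned to barcodes under tissue with BSTMatrix and BSTViewer, per the labels' protocols; the genome build was GRCm38, per the submitters' processing notes. Aligner, counter, strand and the collapsing of molecules were not given in the sources used here. Raw counts per gene and barcode were deposited by the authors, with barcode positions whose unit is not stated. The section labelled wild type holds 50970 barcodes with 39824941 counts (median 721), and the other 88056 with 89754886 (median 932). The genes matched to chromosomes X and Y and to the mitochondrion hold 0 counts in the files used here.

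Counts were summed over squares and compared as summed sets with numpy 2.4.6, scipy 1.17.1 and pandas 2.3.3. Ratios have exact conditional binomial intervals. A gene with 0 counts in a set was placed at the floor of 3 counts. Medians of lists used members with 20 or more counts. The ratio code was tested on simulated data. No test was made, since each genotype has 1 section.

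The members and gene lists were chosen with earlier results of these data known. Genes are named if they are score genes or members of the Paneth lists with 50 or more counts, among the 15 highest or 15 lowest ratios with all 4 position parts on 1 side of 0 (leaving out predicted, ribosomal protein, immunoglobulin and T cell receptor segment and haemoglobin genes), among the 5 largest ratios or 2 most abundant members of a list, or BAF subunits. Others are said to be chosen after their values were seen. Not all genes that the rule admits are reported here. The 4 parts divide the section at the medians of the members' positions. They are unequal, with 337, 1532, 283 and 2519 remaining squares in the section labelled wild type. A value for the whole section can thus lie outside the range over the parts. Of 54658 symbols, 37720 (69.0%) matched RefSeq names. Alternatives covered the grid, the filters, the share taken, the scaling and the remaining squares used.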

Additional observations from a re-analysis of the deposited data

Results flagged for a closer look

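For 4 lists, all 4 position parts lay on one side of the median of all genes in the section labelled wild type and on the other side in the section labelled Dpf2 knockout. The goblet cell list stood at 1.0003 in the Paneth-rich squares of the section labelled wild type and at −0.16 in those of the section labelled knockout. The proliferation list stood at −0.20 and 0.32, and the enteric neuron and glia list at −0.33 and 1.0002. Proliferation genes summed to 2142 and 2113 CPM in the Paneth-rich squares of the 2 sections, and to 3304 and 1467 CPM in their remaining squares. With squares of 20 position units the neuron and glia list stood at 0.51 in the section labelled wild type. The BAF subunits, the complex to which Dpf2 belongs, stood at −0.078 and 0.057, both small. These are list medians minus the median of all genes. The difference between the sections was not tested, with 1 section per genotype, and the parts of a section are not replicates.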

How the results depend on the processing

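Results were recomputed under 18 planned settings and 5 chosen after seeing the data. The count of genes at least 2-fold higher, 73, became 129 with all Defa genes and Lyz1 left out of the total, 171 with scaling by the median of ratios, 143 and 44 with gene filters of 50 and 1000 counts, and 31, 44 and 33 in position parts 1, 2 and 3 alone. The count of genes at least 2-fold lower, 712, became 1191 with squares of 5 position units, 1709 and 315 with the top 2.5% and 10%, 1767 with all genes in the total, 269 without Defa genes and Lyz1, 175 with the median of ratios, 1656 and 111 with filters of 50 and 1000 counts, 36, 124 and 1121 in parts 1, 3 and 4 alone, and 209 against squares 2 or 3 squares away, an added setting. The median of the other Paneth genes, 1.75, lay between 1.31 and 2.21 in all settings: it was 1.53 with all genes in the total, 2.05 without Defa genes and Lyz1, 2.21 with the median of ratios, 2.0 against squares that touch no member, 1.42 and 1.31 in parts 1 and 3, and 1.35 with remaining squares weighted to the members' distances from the centre (added). The stem cell median, −0.53, lay below 0 in all settings: −0.75 with all genes in the total, −0.24 without Defa genes and Lyz1, −0.073 with the median of ratios, −0.29 and −0.35 in parts 1 and 3, −0.37 against squares 2 or 3 squares away and −0.37 weighted (both added). The median of all genes lay at 0 or below in all settings too. The relative median of the stem cell list ran from −0.13 to 0.058 and changed sign in 5 of 23 settings. Among genes and lists at 2-fold or more, those that turned sign were the enterocyte list, at 0.064 in part 3, the relative median of B cell genes, at 0.14 in part 1 and 0.28 against squares 2 or 3 squares away, Reg3b at 0.60 and Isg15 at 0.044 in part 3, and, with squares of 20 position units, Snap25 at 0.19 and Saa1 at 0.0019. Among all, the sign differed in 156 of 4637 values of genes, 42 of 841 of list medians and 110 of 841 of relative medians (for example the fibroblast median of 0.31 at −0.29 in part 3 and the smooth muscle median of −0.58 at 0.18 with squares of 20 position units). The cause was not tested. Of 4637 values for 245 genes, 3388 stayed within the counting interval, 1245 moved beyond it and 4 turned sign from 2-fold or more. No paired analysis was possible because each genotype has 1 section. Depth limits single regulators and ligands, such as Gfi1 and Wnt3, which rest on few counts.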
